A study of Homo sapiens with 6 samples.

Results

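Transcripts of 36 genes that fold proteins in the endoplasmic reticulum (ER), sense their misfolding, destroy them or move them across its membrane were compared in A549 cells after exposure to surfactant protein D, made as a recombinant human protein (rhSP-D), and after vehicle. The genes were picked by symbol from a table of 57773 genes, and all 36 were found. By role they were 17 folding factors, 5 sensors and transcription factors, 10 degradation factors and 4 translocation and export factors. Of these 35 were abundant enough to be tested, and DERL3 was not. A549 is an established line from a human lung adenocarcinoma, and surfactant protein D is a soluble collectin of the airspace that binds carbohydrates. Poly(A) RNA was sequenced from 3 rhSP-D samples, exposed to 10 µg/ml for 48 h, and from 3 vehicle samples, which had elution buffer in equal volume for 48 h. The cells of both groups were of the same line and carried no engineered allele in the labels. The series title points to interleukin-4 and STAT6 signalling, and the labels state no question about the ER.

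Proteins that enter the secretory pathway pass through the SEC61 channel, are folded by the chaperone HSPA5 (BiP), by HSP90B1 (GRP94), by the lectin chaperone CANX (calnexin) and by disulfide isomerases, and leave in COPII vesicles. Chains that do not fold are trimmed by EDEM proteins and passed by SEL1L and the ubiquitin ligase SYVN1 (HRD1) to the proteasome, a route called ER-associated degradation (ERAD). When misfolded protein builds up, the sensors ERN1 (IRE1), ATF6 and EIF2AK3 (PERK) start the unfolded protein response: ERN1 splices the mRNA of XBP1, and the resulting factor, together with cleaved ATF6, switches on many of the genes described here.

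Several of these genes carry the ER stress response element (ERSE), the promoter sequence known to bind ATF6 and XBP1 together with NF-Y, and the stretches around their start sites are shown for that reason. RefSeq promoters of GRCh38.p14, from 250 bases before to 50 bases after the start site, were matched for 32 of the 36 genes, leaving out PDIA3, DERL1, DERL3 and SEC24D. Both strands were searched for ERSE (CCAAT and CCACG with 9 bases between), for ERSE-II (ATTGG and CCACG with 1 base between), for the XBP1-binding element UPRE and for the cyclic AMP response element CRE. The promoters of HSPA5 (chr9:125241294-125241593, minus strand), CANX (chr5:179698679-179698978, plus strand), XBP1 (chr22:28800520-28800819, minus strand) and SDF2L1 (chr22:21642052-21642351, plus strand) follow, 5′ to 3′ on the gene's own strand. Capitals mark the ERSE match in the first 3 and, in SDF2L1, the ERSE-II match, which lies there on the opposite strand.
HSPA5: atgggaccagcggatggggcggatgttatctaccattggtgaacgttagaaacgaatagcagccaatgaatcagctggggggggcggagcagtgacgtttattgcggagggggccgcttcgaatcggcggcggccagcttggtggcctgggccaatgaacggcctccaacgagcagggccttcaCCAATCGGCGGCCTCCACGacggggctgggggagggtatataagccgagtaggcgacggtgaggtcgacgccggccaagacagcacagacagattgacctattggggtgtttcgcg
CANX: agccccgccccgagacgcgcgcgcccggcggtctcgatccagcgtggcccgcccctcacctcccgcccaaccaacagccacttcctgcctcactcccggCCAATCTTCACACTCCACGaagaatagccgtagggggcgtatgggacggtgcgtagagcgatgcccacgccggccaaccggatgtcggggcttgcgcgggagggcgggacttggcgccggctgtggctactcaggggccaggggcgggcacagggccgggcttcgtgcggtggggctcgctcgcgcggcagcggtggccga
XBP1: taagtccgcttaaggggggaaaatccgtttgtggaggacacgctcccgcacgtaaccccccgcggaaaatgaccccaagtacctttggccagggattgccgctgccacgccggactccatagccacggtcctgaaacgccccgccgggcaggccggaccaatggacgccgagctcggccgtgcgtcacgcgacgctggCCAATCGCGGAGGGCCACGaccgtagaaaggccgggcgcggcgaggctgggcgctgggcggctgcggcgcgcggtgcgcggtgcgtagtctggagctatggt
SDF2L1: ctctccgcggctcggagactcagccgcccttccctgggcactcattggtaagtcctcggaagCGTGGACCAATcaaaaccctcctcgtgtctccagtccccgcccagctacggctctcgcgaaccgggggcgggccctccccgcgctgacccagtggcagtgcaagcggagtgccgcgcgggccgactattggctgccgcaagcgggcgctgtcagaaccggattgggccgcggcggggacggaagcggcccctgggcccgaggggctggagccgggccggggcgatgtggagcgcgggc

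ERSE was found in 5 of the 32 promoters and in 27 of 35116 promoters searched (0.077%); the 5 were HSPA5, HSP90B1 with 2 copies, CANX, CRELD2 and XBP1. ERSE-II was found in 3 (HYOU1 with 2 copies of identical sequence, SDF2L1 and HERPUD1) and in 19 promoters overall (0.054%). The matches not seen in the promoters above are listed here as their motif reads 5′ to 3′, with the bases fixed by the motif in capitals.
HSP90B1 upstream site: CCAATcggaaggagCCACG
HSP90B1 downstream site: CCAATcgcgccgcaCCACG
CRELD2: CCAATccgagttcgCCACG
HYOU1: ATTGGaCCACG
HERPUD1: ATTGGgCCACG

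UPRE, matched as TGACGTGG, was found in 2 of the 32, HYOU1 and DNAJC10, against 0.729% of all promoters, and the HYOU1 match overlaps an ERSE-II. CRE, matched as TGACGTCA, was found in 1 of the 32, CREB3L2, against 1.85% of all promoters. The CCAAT box, which is also the first part of ERSE, was found in 25 of the 32, against 34.6% overall. The 8 genes with ERSE or ERSE-II are all folding factors apart from XBP1 and HERPUD1. Of these 8, SDF2L1 rose, CANX and XBP1 fell, and 5 did not pass the test, with a median log2 change of -0.04 in rhSP-D over vehicle. Of the 24 without either motif 3 rose and 6 fell, with a median of -0.02. Over all genes tested 9.31% were higher and 6.63% lower, with a median of -0.01. A match describes the letters of these windows and does not show binding.

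Total counts were 18599955 to 26030880 in the rhSP-D libraries and 11396193 to 19803697 in the vehicle libraries, of which the 36 genes held 151233 to 211591 in rhSP-D and 97334 to 168667 in vehicle. Of 9 epithelial and A549 marker genes all were detected. Their levels summed to 17307 to 17453 TPM (counts per length of merged exons, scaled to the library) in rhSP-D and 18084 to 18111 TPM in vehicle. Most of that sum came from ALDH1A1, KRT18, AKR1B10 and KRT8. KRT19 and EPCAM were low, at 1.77 to 3.10 TPM and 1.87 to 3.16 TPM across both groups. The 6 lymphocyte markers summed to 0 to 0.757 TPM in rhSP-D and 0.017 to 1.18 TPM in vehicle, with 3 of them at 0 in every library. Endothelial markers, of which 5 of 6 were matched, summed to 0.122 to 0.244 TPM in rhSP-D and 0.081 to 0.208 TPM in vehicle. Macrophage markers, mostly CD68, summed to 130 to 138 TPM in rhSP-D and 126 to 134 TPM in vehicle, and fibroblast markers to 4.998 to 5.53 TPM in rhSP-D and 4.23 to 5.96 TPM in vehicle. CD163 of the 6 macrophage markers and DCN of the 6 fibroblast markers had 0 counts in every library, and MRC1, with a total count of 1 over the 6 libraries, had no exonic length and entered no TPM. Exonic length and GC content separated the groups across all genes. Of the 3070 genes with the shortest exonic sequence 509 were higher and 37 lower in rhSP-D, and of the 3070 with the longest 110 were higher and 515 lower.

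Expressed per length of the merged exons of each gene, the folding factors held the highest levels of the set. Over all 6 libraries the disulfide isomerase P4HB averaged 905 TPM, HSP90B1 747 TPM, CANX 602 TPM and HSPA5 547 TPM, and the median of the 17 folding factors was 94.7 TPM. The sensors were scarcer, with 17.2 TPM for ATF6, 10.3 TPM for EIF2AK3 and 5.99 TPM for ERN1, while XBP1 reached 245 TPM, the eighth level of the 36. Degradation factors had a median of 40.9 TPM and ran down to DERL3, a derlin of the ERAD machinery, at 0.30 TPM. The 4 translocation and export factors had a median of 123 TPM. Levels across genes are given in TPM, which carry no correction for library composition, so comparisons between the groups rest on the CPM (counts scaled to library size) that follow.

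**Figure D1:**
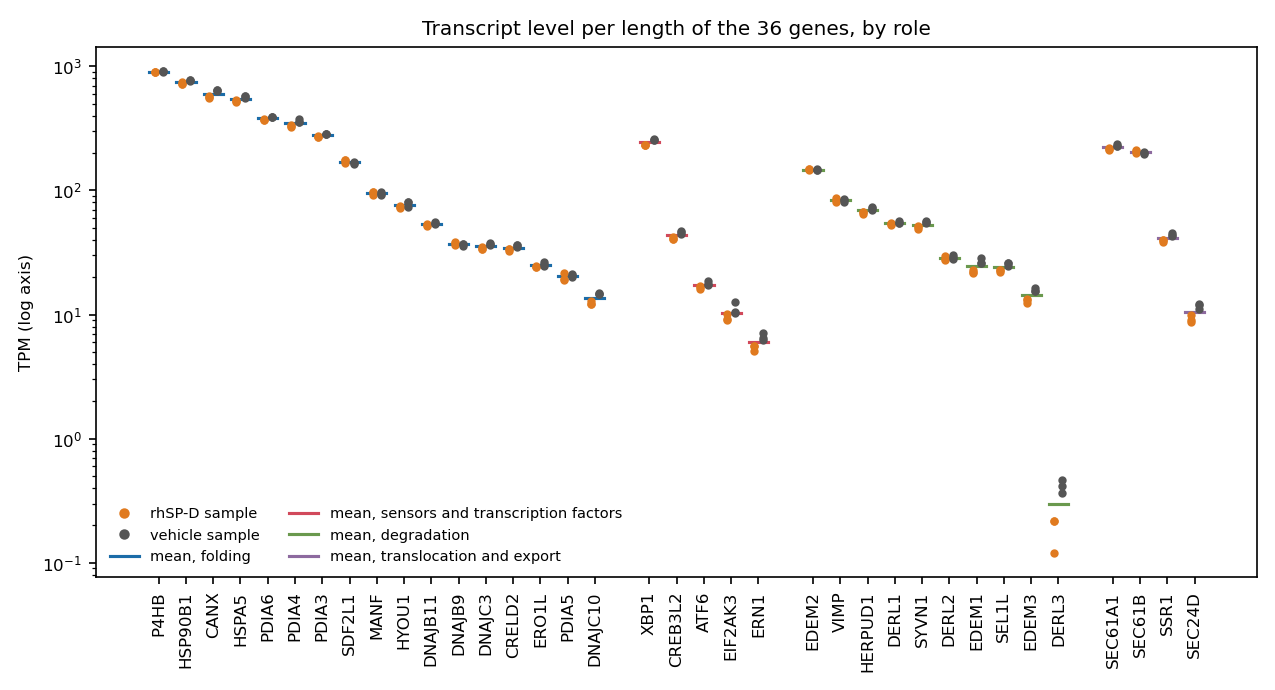
Level of each of the 36 genes in TPM on a log axis, grouped by role, with 1 point per library (rhSP-D left of vehicle) and a bar at the mean of the 6. P4HB, HSP90B1, CANX and HSPA5 lie at the top of the folding factors, ERN1 is the lowest sensor and DERL3 the lowest gene of all.

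Against vehicle, rhSP-D was followed by small changes in 13 of the 35 genes tested, or 37.1%, where 15.9% of all 15848 genes tested changed. In RNA from whole cultures, fewer cells of a kind and less RNA per cell cannot be told apart. Higher in rhSP-D were 4: P4HB, the chaperone partner SDF2L1, the selenoprotein VIMP (SELENOS) and the channel subunit SEC61B (9.31% of all genes were higher). Lower in rhSP-D were 9: CANX, the reductase DNAJC10 (ERdj5), ERN1, XBP1, EDEM1, EDEM3, SEL1L, SSR1 and SEC24D (6.63% of all genes were lower). The changes ranged from 4.03% to 15.6% in size, and the median log2 change of the 35 genes was -0.04, against -0.01 over all genes. In 18 of the 35 the rhSP-D libraries did not overlap the vehicle libraries, a larger share than the 31.5% of all genes tested. Of these 6 lay above (16.2% of all genes) and 12 below (15.4%). The shares over all genes were not matched to the 35 for abundance, and the genes were chosen with earlier results of these data known. Under a filter of 1 CPM in 3 samples 4 of the 35 were higher and 9 lower, and 18.2% of 14454 genes changed. With trends on exonic length and GC content removed, 2 of the 35 were higher and 1 was lower, while 1271 of 15347 genes were higher and 429 lower (11.1%). VIMP alone of the 13 was among the 3. By the same quasi-likelihood test of edgeR, 0 were higher and 6 lower without vehicle replicate 3, where 5 were higher and 12 lower at an unadjusted p under 0.05; 10.7% of all genes tested changed in that setting. Without rhSP-D replicate 1, 1 was higher and 5 were lower, and 10.4% of all genes changed.

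**Figure D2:**
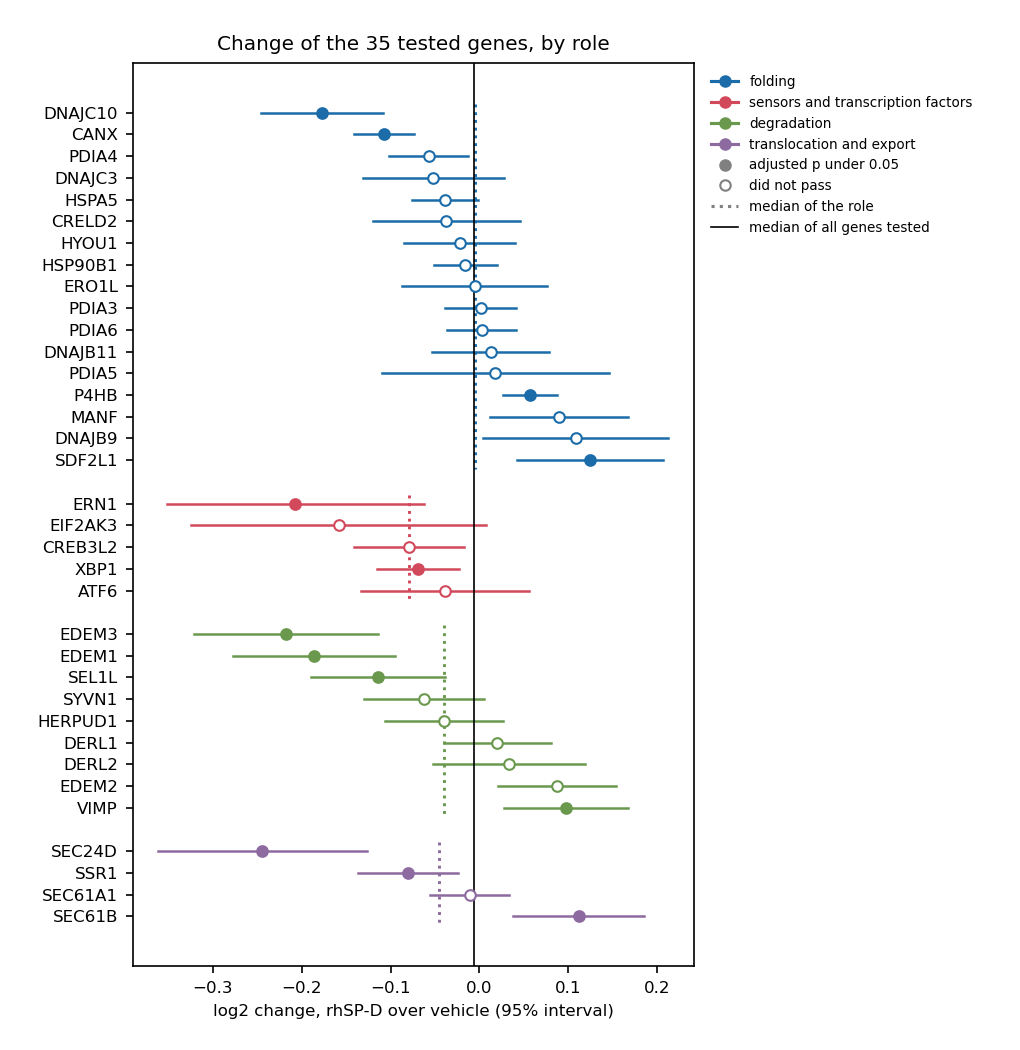
Log2 change of the 35 tested genes in rhSP-D over vehicle, grouped by role, with 95% intervals of the fit. Filled points passed at an adjusted p under 0.05, dotted lines are the median of each role and the solid line is the median of all genes tested. All 5 sensors and transcription factors lie below 0, while 8 of 17 folding factors lie above it, as do 48.4% of all genes tested.

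By role, 2 of 17 folding factors rose and 2 fell, where 9.31% of all genes tested were higher and 6.63% lower. Of the 17, 8 lay above 0, as did 48.4% of all genes. The median log2 change of the folding factors was -0.01, as it was over all genes. Of the 5 sensors and transcription factors 2 fell and all 5 lay below 0, with a median of -0.08. With the length and GC trends removed ATF6 lay above 0, at 0.05. Of 9 degradation factors 1 rose and 3 fell, with a median of -0.04. Sensors and degradation factors together numbered 14, of which 1 rose and 5 fell, with a median of -0.07, which put the folding factors 0.06 higher on the log2 scale. That gap was 0.05 to 0.07 with any 1 library left out and 0.03 after the length and GC trends were taken out; sensors and degradation factors had a median exonic length of 6572 nt, against 4695 nt for folding factors. No test of the difference between roles was made. As summed levels, the 5 sensors and transcription factors held 430, 427 and 438 CPM in rhSP-D, against 461, 455 and 452 CPM in vehicle, and XBP1 made up the larger part. The 10 degradation factors summed to 742 ± 1.66 CPM in rhSP-D and 751 ± 1.95 CPM in vehicle, without overlap, a difference of -1.30%, against -5.39% for the sensors and transcription factors and -1.16% for the folding factors. The 17 folding factors summed to 6532 ± 68.3 CPM in rhSP-D and 6608 ± 34.4 CPM in vehicle (SD, n = 3 each), and those libraries overlapped.

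HSPA5, the main chaperone of the ER lumen and the usual readout of its stress, stood at 670, 679 and 685 CPM in rhSP-D, against 700, 706 and 683 CPM in vehicle. Vehicle replicate 3 lay within the rhSP-D values, so the groups overlapped. The log2 change was -0.04 (SE 0.02, adjusted p = 0.155), with a 95% interval of -5.12% to -0.12%. HSP90B1, the ER member of the HSP90 family, had 1113, 1106 and 1150 CPM in rhSP-D, against 1129, 1149 and 1127 CPM in vehicle. Its groups overlapped as well, and its log2 change of -0.02 did not pass (adjusted p = 0.607). Library totals alone, without the correction for composition, put both below vehicle and past the threshold, with log2 changes of -0.08 for HSPA5 and -0.06 for HSP90B1; that scaling moved the median of all genes to -0.05.

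CANX, which holds glycoproteins in the ER until they fold, had 1145, 1156 and 1185 CPM in rhSP-D, against 1265, 1246 and 1245 CPM in vehicle. The highest rhSP-D library lay below the lowest vehicle library. CANX fell by 7.15% (log2 change -0.11, SE 0.02, adjusted p = 2.64e-05), the smallest p of the set. DNAJC10, a co-chaperone that reduces disulfides of chains bound for degradation, had 87.2, 92.6 and 87.9 CPM in rhSP-D, against 99.1, 101 and 102 CPM in vehicle. Its groups were also apart, and it fell by 11.5% (log2 change -0.18, SE 0.03, adjusted p = 3.62e-04). At 21835 nt DNAJC10 has the longest exonic sequence of the 36 genes. With the length and GC trends removed the log2 changes were -0.03 for CANX and -0.05 for DNAJC10 and neither passed (adjusted p = 0.275 and 0.362).

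P4HB, the abundant disulfide isomerase that also serves as a subunit of collagen prolyl 4-hydroxylase, had 1583, 1560 and 1582 CPM in rhSP-D, against 1517, 1522 and 1503 CPM in vehicle. Every rhSP-D library was above every vehicle library, and the gene rose by 4.03% (log2 change 0.06, SE 0.02, adjusted p = 0.00835). SDF2L1, which works with the co-chaperone DNAJB11 in the HSPA5 cycle, had 63.4, 60.3 and 63.2 CPM in rhSP-D, against 58.4, 56.8 and 56.9 CPM in vehicle. SDF2L1 rose by 9.01%, again with no overlap (log2 change 0.12, SE 0.04, adjusted p = 0.0311). P4HB missed the threshold without vehicle replicate 3 (adjusted p = 0.0543), and SDF2L1 missed it without rhSP-D replicate 1 (0.132) or 3 (0.101) or vehicle replicate 2 (0.0850) or 3 (0.112). Removing the length and GC trends gave log2 changes of 0.03 for P4HB (adjusted p = 0.211) and 0.0004 for SDF2L1 (adjusted p = 0.998), which at 1099 nt and 65.5% GC is the shortest gene of the set and the richest in GC.

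The remaining 13 folding factors did not pass the test. PDIA3, PDIA4, PDIA5 and PDIA6, disulfide isomerases, had log2 changes of 0.001, -0.06, 0.02 and 0.003. PDIA4 lay lower in every rhSP-D library, at 353, 359 and 363 CPM, against 365, 370 and 383 CPM in vehicle (adjusted p = 0.0707), and it passed without vehicle replicate 1 (adjusted p = 0.0496) and with the length and GC trends removed (log2 change -0.09, adjusted p = 0.00502). ERO1L (ERO1A), the oxidase that recharges the isomerases, had a log2 change of -0.01. Among the HSPA5 co-chaperones, DNAJB9 (ERdj4) was at 35.1, 34.1 and 35.9 CPM in rhSP-D, against 31.6, 32.9 and 32.8 CPM in vehicle, a log2 change of 0.11 that did not pass (adjusted p = 0.158) although the groups were apart. DNAJB11 (ERdj3), DNAJC3 (p58IPK) and the nucleotide exchange factor HYOU1 (GRP170) had log2 changes of 0.01, -0.05 and -0.02. MANF, a small secreted protein of the stress response, had 76.4, 72.2 and 76.3 CPM in rhSP-D, against 69.0, 72.4 and 69.9 CPM in vehicle (log2 change 0.09, adjusted p = 0.109). CRELD2, another gene induced by ER stress, had a log2 change of -0.04. The intervals of HSP90B1, PDIA3 and PDIA6 reached no further than 3.45% below and 2.94% above vehicle.

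**Figure D3:**
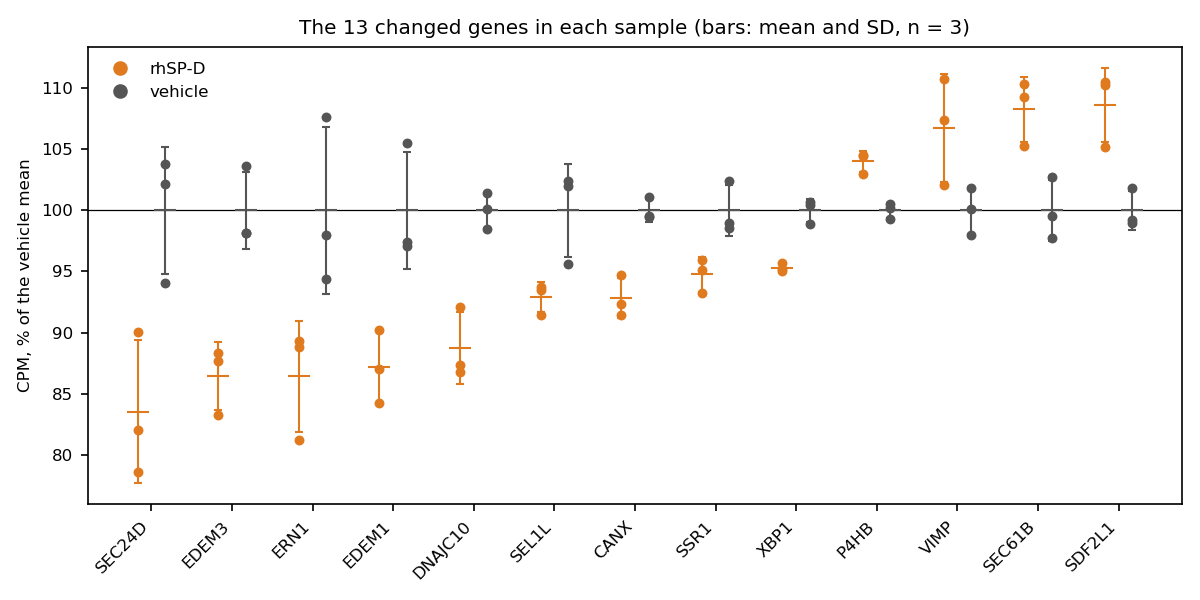
CPM of each of the 13 changed genes in every library, as a percentage of the mean of the 3 vehicle libraries, with rhSP-D left of vehicle and bars for the mean and SD (n = 3). The 4 genes that rose have all rhSP-D points above all vehicle points, and the 9 that fell have them all below.

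ERN1, the kinase and endonuclease that senses misfolded protein, had 20.03, 18.2 and 19.9 CPM in rhSP-D, against 21.98, 24.1 and 21.2 CPM in vehicle. The groups did not overlap, and ERN1 fell by 13.4% (log2 change -0.21, SE 0.07, adjusted p = 0.0436). XBP1, whose mRNA is the substrate of ERN1, was tightly grouped, at 231.9, 232.1 and 233.4 CPM in rhSP-D, against 245.0, 245.5 and 241.2 CPM in vehicle. XBP1 fell by 4.65% (log2 change -0.07, SE 0.02, adjusted p = 0.0357). The counts are per gene, so the spliced and unspliced forms of XBP1 mRNA were not told apart. Both calls lay close to the threshold: ERN1 passed without vehicle replicate 3 (adjusted p = 0.0392) and missed the threshold when any other library was left out (0.0603 to 0.259), and XBP1 missed it with each of the 6 left out in turn (0.0583 to 0.119). With the length and GC trends removed ERN1 had a log2 change of -0.15 (adjusted p = 0.204) and XBP1 one of -0.04 (adjusted p = 0.321).

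ATF6, the sensor that is cleaved in the Golgi to release a transcription factor, had 43.6, 41.8 and 43.9 CPM in rhSP-D, against 42.8, 43.8 and 45.7 CPM in vehicle. The groups overlapped, and the log2 change was -0.04 (adjusted p = 0.648). EIF2AK3, the kinase that slows translation under ER stress, had 16.2, 16.5 and 18.0 CPM in rhSP-D, against 21.6, 17.7 and 17.9 CPM in vehicle. The groups overlapped and vehicle replicate 1 was the highest of the 6; the log2 change of -0.16 did not pass (adjusted p = 0.202); it was -0.08 without that library. CREB3L2, a membrane-bound transcription factor related to ATF6, had 118, 119 and 123 CPM in rhSP-D, against 130, 124 and 126 CPM in vehicle. Its groups were apart with a log2 change of -0.08 (adjusted p = 0.0746), and it passed without rhSP-D replicate 3 (adjusted p = 0.0467). The log2 change of CREB3L2 was -0.01 (adjusted p = 0.847) with the length and GC trends removed.

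EDEM1, which trims mannose from misfolded glycoproteins, had 51.3, 47.9 and 49.5 CPM in rhSP-D, against 60.1, 55.4 and 55.2 CPM in vehicle. It fell by 12.1% with no overlap (log2 change -0.19, SE 0.04, adjusted p = 0.00362). EDEM3, of the same family, had 32.1, 34.0 and 33.8 CPM in rhSP-D, against 37.8, 37.8 and 39.9 CPM in vehicle, and fell by 14.02% (log2 change -0.22, SE 0.05, adjusted p = 0.00286). EDEM2, which starts the same trimming, lay the other way: 94.4, 93.1 and 93.5 CPM in rhSP-D, against 86.9, 88.6 and 88.6 CPM in vehicle, with a log2 change of 0.09 that did not pass (adjusted p = 0.0649). The exonic sequence of EDEM2 is 1919 nt long, that of EDEM1 6758 nt and that of EDEM3 7804 nt. With the length and GC trends removed the log2 changes were -0.12 for EDEM1 (adjusted p = 0.0808), -0.12 for EDEM3 (0.122) and 0.02 for EDEM2 (0.815).

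SEL1L, the adaptor that brings substrates to SYVN1, had 69.9, 71.4 and 71.6 CPM in rhSP-D, against 73.0, 78.2 and 77.9 CPM in vehicle. The 2 groups were apart by a small margin, and SEL1L fell by 7.61% (log2 change -0.11, SE 0.04, adjusted p = 0.0333). With 1 library left out it passed without vehicle replicate 1 alone (adjusted p = 0.0167), and otherwise had an adjusted p of 0.0527 to 0.156. SYVN1 itself had 92.6, 93.2 and 89.4 CPM in rhSP-D, against 96.5, 94.4 and 96.7 CPM in vehicle, which did not overlap either, but its log2 change of -0.06 did not pass (adjusted p = 0.222). HERPUD1, a scaffold of the SYVN1 complex, had 110, 114 and 115 CPM in rhSP-D, against 119, 119 and 111 CPM in vehicle (log2 change -0.04, adjusted p = 0.474), with overlap.

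VIMP, a selenoprotein of the ER membrane that links derlins to the ATPase VCP, had 105, 99.8 and 108 CPM in rhSP-D, against 99.6, 95.8 and 97.9 CPM in vehicle. The lowest rhSP-D library was just above the highest vehicle library, and VIMP rose by 7.02% (log2 change 0.10, SE 0.03, adjusted p = 0.0481). It passed without rhSP-D replicate 2 (adjusted p = 0.0193) and missed the threshold when any other library was left out (0.0511 to 0.242). VIMP also passed with the length and GC trends removed, at a log2 change of 0.11 (adjusted p = 0.0292). The derlins DERL1 and DERL2, membrane proteins through which substrates leave the ER, had log2 changes of 0.02 (adjusted p = 0.713) and 0.03 (0.665); DERL1 passed with the trends removed (0.10, adjusted p = 0.0192). DERL3 had 7, 5 and 3 counts in rhSP-D and 5, 9 and 11 counts in vehicle, too few to test, and 2923 nt of its 3796 nt of exons overlap exons of the opposite strand.

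SEC61B, a small subunit of the translocation channel, had 82.1, 82.9 and 79.1 CPM in rhSP-D, against 73.5, 77.2 and 74.8 CPM in vehicle. It rose by 8.08% with no overlap (log2 change 0.11, SE 0.04, adjusted p = 0.0311). SEC61A1, the pore-forming subunit, had a log2 change of -0.01 (adjusted p = 0.796). SSR1, a subunit of the TRAP complex beside the channel, had 145, 150 and 148 CPM in rhSP-D, against 154, 154 and 160 CPM in vehicle, and fell by 5.44% with no overlap (log2 change -0.08, SE 0.03, adjusted p = 0.0433). SEC24D, which loads cargo into COPII vesicles, had 32.7, 28.6 and 29.8 CPM in rhSP-D, against 37.7, 37.1 and 34.2 CPM in vehicle. Its groups were apart, and its fall of 15.6% was the largest change among the 35 (log2 change -0.24, SE 0.06, adjusted p = 0.00321). SEC61B missed the threshold without rhSP-D replicate 1 (adjusted p = 0.116) or 2 (0.104) or vehicle replicate 1 (0.0880) or 3 (0.116), and SSR1 missed it with each of the 6 libraries left out in turn (0.0504 to 0.250). After the length and GC trends were taken out SEC24D had a log2 change of -0.16 (adjusted p = 0.0727), SEC61B one of 0.05 (0.438) and SSR1 one of 0.03 (0.576).

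CANX, DNAJC10, EDEM1, EDEM3 and SEC24D passed with each of the 6 libraries left out in turn. The 4 genes that rose and the 9 that fell differed in build: the exonic sequence had a median of 2478 nt (1099 to 5303 nt) and a median GC content of 53.6% in the genes that rose, and a median of 9559 nt (3028 to 21835 nt) and 41.5% GC in those that fell. Over all genes the median log2 change was 0.09 in that shortest group and -0.07 in the longest, and -0.07 in the 3070 genes lowest in GC and 0.06 in the 3070 highest. In the group lowest in GC 101 genes were higher and 395 lower in rhSP-D, and in the highest 515 were higher and 55 lower. The part of these properties in the changes of single genes was not tested beyond the corrected values given here. After the correction the role medians were 0.02 for folding factors, -0.04 for sensors, -0.01 for degradation factors and 0.005 for translocation and export factors, against 0.01 over all genes.

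**Figure D4:**
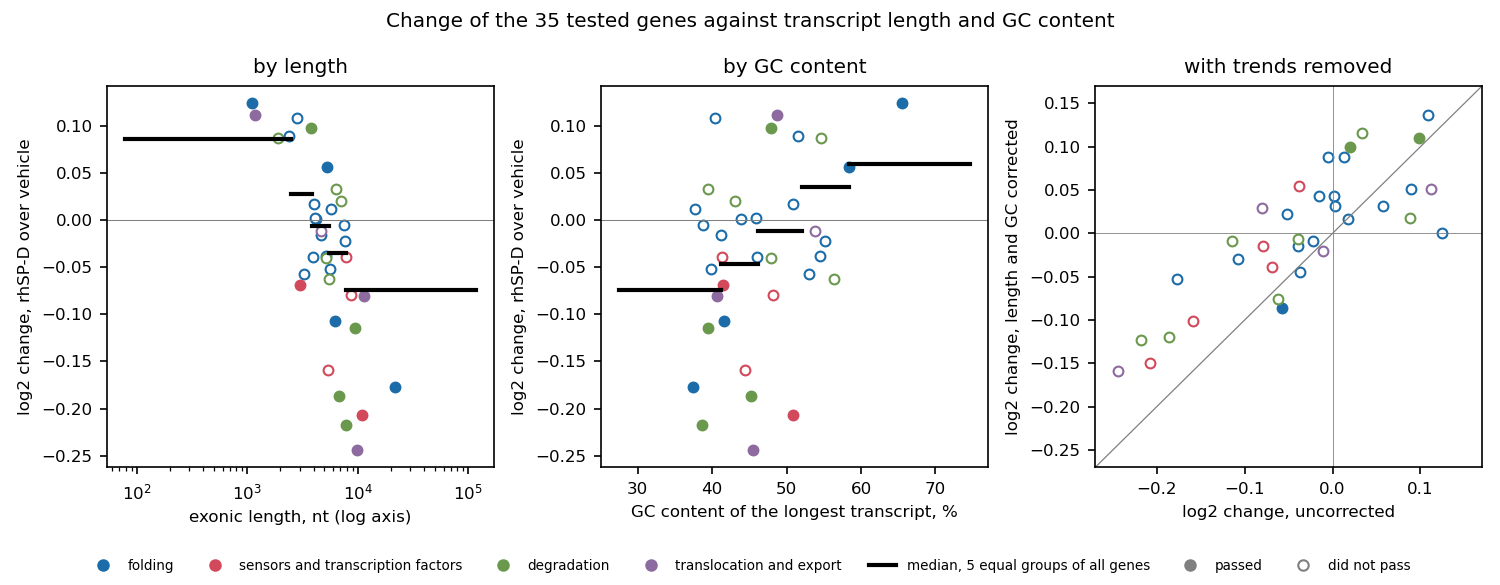
Log2 change of the 35 tested genes in rhSP-D over vehicle against exonic length in nt (log axis, left) and GC content in percent (middle), and log2 change with the length and GC trends removed against that without (right). Colours give the role, filled points passed (in the right panel, after the correction) and black bars are medians of all genes cut into 5 equal groups. The genes that rose lie at 1099 to 5303 nt and those that fell at 3028 to 21835 nt.

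A further 148 genes of the same compartment were listed by function, and 144 were tested. The lists were chosen with earlier results of these data known, so their shares describe them and test nothing about the compartment. Of these 28 were higher and 17 lower in rhSP-D (31.3%), where 15.9% of all genes tested changed, 9.31% higher and 6.63% lower. These shares are also the background for each list below. The median log2 change of the 144 was 0.003. The 28 had a median exonic length of 2838.5 nt and the 17 one of 4862 nt. With the length and GC trends removed 25 were higher and 6 lower, where 11.1% of all genes changed. Among 35 other folding factors 10 rose and 2 fell. PPIB, a cyclophilin of the ER, averaged 803 ± 14.6 CPM in rhSP-D and 715 ± 14.1 CPM in vehicle (SD, n = 3 each) and rose by 12.3% (adjusted p = 1.58e-07). The lumenal chaperone ERP29 rose by 12.3%, and FKBP2, a prolyl isomerase, rose by 15.6%. Among 24 genes listed as other degradation factors 5 rose and 3 fell. The 3 include TRAM1, a translocation factor that was counted in this list and fell by 5.65%. TMUB1 rose by 24.4%, at 71.4 ± 3.53 CPM in rhSP-D and 57.7 ± 0.794 CPM in vehicle. The lectin OS9 rose by 7.74%, and the ubiquitin ligase MARCH6 fell by 11.5%. With the trends removed PPIB, ERP29, FKBP2, TMUB1 and OS9 still passed, with log2 changes of 0.10, 0.16, 0.10, 0.23 and 0.12, and MARCH6 did not (-0.06, adjusted p = 0.274). Exons of PPIB, ERP29 and OS9 overlap exons of the opposite strand.

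Among 14 other sensors and regulators of the response 1 changed: MBTPS2, the Golgi protease that makes the final cut in ATF6, fell by 12.7%, at 40.4 ± 2.62 CPM in rhSP-D and 46.2 ± 1.31 CPM in vehicle (adjusted p = 0.00665). Of 14 genes listed for the branch below EIF2AK3, 1 rose and 3 fell. Whether their levels depended on EIF2AK3 was not tested. Of the 14, 6 lay above 0 and 8 below, with a median log2 change of -0.02. ATF4, the transcription factor of that branch, rose by 8.19%, with 557 ± 6.95 CPM in rhSP-D and 515 ± 9.98 CPM in vehicle (adjusted p = 9.37e-05). TRIB3 and SESN2, both known as targets of ATF4, fell by 9.53% and 10.1%, with adjusted p = 2.78e-05 and 0.0287. CHAC1, another such target and named after its value was seen, fell by 13.6% (adjusted p = 0.0409). DDIT3 (CHOP), also named after its value was seen, had 23.8 ± 1.99 CPM in rhSP-D and 26.6 ± 2.07 CPM in vehicle, and did not pass (log2 change -0.17, adjusted p = 0.0807). Exons of DDIT3 overlap exons of the opposite strand over 413 nt. PPP1R15A and ASNS of the same list, likewise named after their values were seen, lay above 0. Their log2 changes were 0.07 and 0.02, and neither passed (adjusted p = 0.202 and 0.632). With the length and GC trends removed, TRIB3, SESN2, CHAC1 and DDIT3 were lower, with log2 changes of -0.20, -0.21, -0.30 and -0.24 (adjusted p = 2.23e-08, 0.00332, 0.0185 and 0.0158), while ATF4 did not pass (0.05, adjusted p = 0.110), nor did MBTPS2 (-0.10, adjusted p = 0.224). MBTPS2 also missed the threshold without rhSP-D replicate 1 (adjusted p = 0.0848) and without vehicle replicate 3 (0.0507). SESN2 missed it without rhSP-D replicate 1 or 2 or vehicle replicate 1 or 3 (0.0824 to 0.141), and CHAC1 missed it with each library left out in turn apart from rhSP-D replicate 2 (0.0533 to 0.226).

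Of 21 other translocation genes, TRAM1 not among them, 6 rose and 1 fell. Those with the smallest p all rose: SEC11A, a signal peptidase subunit, by 10.2%, SRP14, of the signal recognition particle, by 11.6% and SEC61G, another subunit of the channel, by 14.4%. Of 10 oligosaccharyltransferase genes, whose products attach the glycan that CANX reads, 3 rose and 2 fell. DAD1 rose by 12.3% and OSTC by 8.82%, and the catalytic subunit STT3B fell by 9.07%; DDOST and MAGT1, named to complete the count, rose by 5.13% and fell by 7.35%. Without rhSP-D replicate 3 OSTC (adjusted p = 0.104), DDOST (0.0982) and MAGT1 (0.140) did not pass. Without vehicle replicate 3 OSTC (0.0549) and DDOST (0.138) did not, DDOST did not without rhSP-D replicate 1 (0.0581), and MAGT1 did not without vehicle replicate 1 (0.108) or 2 (0.0533). After the length and GC trends were taken out OSTC alone of the 5 passed, at a log2 change of 0.12. Of 26 COPII and cargo receptor genes 3 rose and 5 fell, with a median log2 change of -0.04. SEC23A, the coat partner of SEC24D, fell by 11.4%, while the retrieval receptor KDELR1 and the cargo lectin LMAN2 rose by 9.19% and 8.36%. Exons of SEC23A overlap exons of the opposite strand over 452 nt. With the trends removed SEC11A, SRP14 and SEC61G had log2 changes of 0.17, 0.15 and 0.19 and KDELR1 one of 0.07, and all 4 passed, while SEC23A (-0.07, adjusted p = 0.0784) and LMAN2 (0.04, adjusted p = 0.348) did not.

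**Figure D5:**
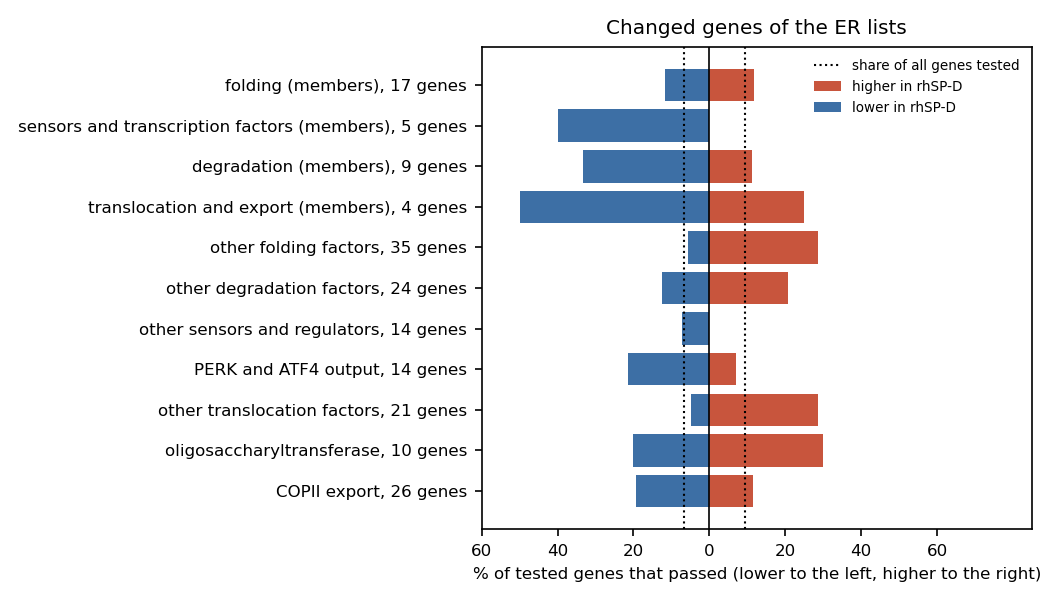
Percentage of tested genes that were higher (right of 0) and lower (left of 0) in rhSP-D than in vehicle, for the 4 roles of the 35 genes (marked as members) and the 7 further lists, with dotted lines at the shares of all genes tested (9.31% higher and 6.63% lower). Other folding factors had 10 of 35 higher and 2 lower, and the COPII list 3 of 26 higher and 5 lower.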

How the data were processed

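Poly(A) RNA of 6 A549 samples was sequenced in paired-end reads. The authors deposited unnormalized counts, whole numbers for each gene. They came from cutadapt, STAR 2.7.0a and featureCounts 2.0.0 on GRCh38 (hg38), per the submitters' processing notes; the strand setting, annotation release and treatment of reads with several matches were not given in those sources. Coordinates, exonic lengths (merged exons) and GC content (longest transcript) are from GENCODE 29.

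Groups follow the sample labels. Nothing states that replicates were separate cultures, and the spread behind the p-values may be technical (biological coefficient of variation 2.51%). All pairs of libraries differed beyond counting error. The fit used edgeR 4.0.16 (R 4.3.3): after filterByExpr (minimum count 10, minimum total 15) and TMM scaling, each gene was tested 2-sided by a robust quasi-likelihood fit, Benjamini-Hochberg adjusted over 15848 genes; a gene rose, fell or changed at an adjusted p under 0.05. CPM use TMM-scaled totals; SE and 95% intervals come from the fit. TPM were computed from counts and exonic lengths, over genes that have one. The length and GC correction enters natural splines (5 degrees of freedom) per library as offsets, for 96.8% of genes. The fitting procedure was tested on simulated data.

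Genes and lists were chosen with earlier results of these data known. All 36 genes are described by role, with values in every sample for those that passed and for HSPA5, HSP90B1, XBP1, ERN1, ATF6, EIF2AK3, SYVN1, SEL1L and HERPUD1; values of PDIA4, DNAJB9, MANF, CREB3L2 and EDEM2 were added after they were seen. In each further list the 3 smallest p among those that passed are named. PDIA2, GPX7, ERN2 and CREB3L3 were too scarce to test. If strand was not counted, reads of 18 of the 36 genes (CANX, P4HB, EDEM1 and SSR1 among the changed) cannot be told from those of overlapping genes on the other strand. Counts of PDIA3P1, a near copy of PDIA3, were 1.14% of those of PDIA3. Alternatives were DESeq2 1.42.0, limma-voom (limma 3.58.1), other scalings and filters, a replicate block, the correction, thinning to the shallowest library, mitochondrial genes left out, an adjusted p under 0.01 and each library left out in turn; applying them to the further lists was chosen after seeing the data.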

Additional observations from a re-analysis of the deposited data

How the results depend on the processing

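CANX, DNAJC10, EDEM1, EDEM3 and SEC24D passed in every alternative other than the length and GC correction (SEC24D also with that correction and the replicate block). Of 629 values of single genes 503 kept direction and side of the threshold, 82 lost it, 11 gained it and 33 changed sign. The 82 all belonged to the 13 changed genes, which alone could lose it, over 18 alternatives each. ERN1, XBP1 and SSR1 each lost it in 11 of the 18, and SEC24D in 1. The cause was not tested. At an adjusted p under 0.01, 1 of the 36 genes was higher and 5 lower (939 and 526 of all genes, 18 and 11 of the further lists). Library totals alone gave 0 higher (1 at an unadjusted p under 0.05) and 14 lower (856 and 1961 of all genes, 15 and 29 of the lists), with medians of -0.0464 for folding factors, -0.12 for sensors, -0.0805 for degradation and -0.0869 for transport, and turned PDIA3 (-0.0395), PDIA5 (-0.0233), PDIA6 (-0.0382), DNAJB11 (-0.0284), DERL1 (-0.0207) and DERL2 (-0.0078). DESeq2 gave 1 higher and 5 lower (1016 and 518 of all genes, 9.68%, and 11 of the lists lower). EIF2AK3 had no adjusted p there. The length and GC correction gave 2 higher and 1 lower (1271 and 429 of all genes, 11.1%, and 25 and 6 of the lists), with medians of 0.022, -0.0387, -0.0063 and 0.0048 in the same order of roles, and turned HSP90B1 (0.0434), ERO1L (0.088), DNAJC3 (0.022), ATF6 (0.0544) and SSR1 (0.0297). Upper-quartile factors turned PDIA3 (-0.003) and PDIA6 (-0.0017), a filter of 1 CPM in 3 samples PDIA3 (-0.0004), and thinning HYOU1 (0.0023), PDIA6 (-0.0007) and ERO1L (0.0403). With any 1 library left out, 0 to 3 of the 36 were higher and 5 to 7 lower. Of all genes 1042 to 1336 were higher and 636 to 892 lower in those fits, and the degradation median was -0.0542 to -0.0185. Log2 changes there spanned -0.0294 to 0.022 for ERO1L, -0.0035 to 0.0063 for PDIA3, -0.0466 to 0.0563 for PDIA5 and -0.0104 to 0.0123 for PDIA6. They spanned -0.0273 to 0.0017 for SEC61A1, -0.0576 to 0.0003 for HYOU1 and -0.0061 to 0.025 for DNAJB11. Replicate numbers did not pair the samples (correlations of same-numbered deviations -0.079, -0.068 and 0.027); with a replicate block 3 of the 36 were higher and 5 lower (1374 and 945 of all genes). The block with the correction gave 2 higher and 2 lower (1143 and 360 of all genes, 9.79%, and 5 of the lists lower). Its medians were 0.0259, -0.0405, -0.0037 and 0.0053. It turned HSP90B1 (0.0435), ERO1L (0.0867), DNAJC3 (0.0199), SDF2L1 (-0.0014), ATF6 (0.0551) and SSR1 (0.0316). Counts per library limit DERL3, and 3 samples per group limit changes of a few percent.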
